A study of Arabidopsis thaliana with 8 samples.

Results

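Aquaporins are the membrane channels through which plant cells pass water and small uncharged solutes, and the 35 genes of the Arabidopsis thaliana family were measured here in seedlings that overexpress the cuticle regulator WIN1. They were taken by locus, as all genes of the 4 subfamilies. Each of the 35 loci had 1 non-control probe on the array, out of 37478 probes and 25665 loci named in all. The family holds 13 plasma membrane intrinsic proteins (PIP, in a PIP1 group of 5 and a PIP2 group of 8), 10 tonoplast intrinsic proteins (TIP), 9 nodulin 26-like intrinsic proteins (NIP) and 3 small basic intrinsic proteins (SIP).

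Seedlings of a transgenic and a control genotype were compared, with 4 samples a group and 8 in all. The transgenic ones carried 35S:WIN1:NOS, which puts WIN1, an AP2/ERF transcription factor gene, behind the viral 35S promoter, which is active in most plant tissues. The others were titled vector control, while their genotype field reads wild type. Both were whole 2-week-old seedlings of ecotype Columbia-0 grown on agar with 1% sucrose at 23 degrees Celsius in 16 h light and 8 h dark. The labels give neither the number of transgenic lines nor separate plates for the samples, so the p-values describe how these particular samples vary, and that variation may be technical. Total RNA of each sample went to one 1-colour array. Levels below are on a log2 scale relative to the 75th percentile of the processed signal on the same array, so a level of 0 is a probe as bright as that percentile. A difference is the 35S:WIN1 mean minus the control mean on that log2 scale. Levels of different probes are not compared with each other, and a summed level of several genes is carried mostly by the brightest probes.

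In plants, PIPs sit mainly in the plasma membrane and carry most of the water that crosses it, PIP2 proteins being the stronger water channels and PIP1 proteins often needing a PIP2 partner to reach the membrane. TIPs are the channels of the vacuole membrane. NIPs carry solutes such as boric acid, glycerol, lactic acid and arsenite, and SIPs lie in the endoplasmic reticulum. WIN1 is known for raising cuticle formation, and the cuticle limits water loss from the shoot.

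WIN1 (AT1G15360) itself stood at 5.62, 5.44, 4.50 and 3.85 on 35S:WIN1 replicates 1 to 4, against -9.10, -6.07, -9.32 and -8.34 in the control, where 1 array was above background. The percentile used for scaling lay at a signal of 1790 to 2490 on 6 arrays. It was 996.7 and 1269 on replicates 1 and 2 of 35S:WIN1, which were dimmer than the rest and are called the dimmest arrays below. Each genotype had a slide of its own, so the effects of slide and of genotype cannot be told apart in the results that follow. Measured against that percentile, the spike-in RNAs had a median difference of 1.58. It rests on 8 probes and was uneven between arrays. Their median level ran from 2.77 to 4.38 in 35S:WIN1 and from 1.55 to 2.78 in the control. Scaling on the spike-in RNAs instead would move every difference down by about the same amount, the median of all genes shifting by -1.64.

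Relative to the 75th percentile, 2 aquaporins were higher and 11 lower in 35S:WIN1 at an adjusted p under 0.05 (limma, Benjamini-Hochberg over 20441 genes), and 18 of the 31 tested were not called. The higher ones on that scale were PIP1;1 and NIP1;2. On the spike-in scale their differences were -0.99 and -0.91. The lower members stayed lower there, which had to follow because that scale moves every difference down. Over all genes tested 15.1% were called higher and 20.2% lower, 35.3% in all, against 6.45% and 35.5% of the 31 tested aquaporins, 41.9% in all. These shares include 3 genes, all called lower, whose difference was built into the filter on dim probes (below). The median difference of the tested aquaporins was -0.16 and that of all genes tested -0.04. On the authors' deposited values, which carry no scaling from array to array, 0 aquaporins were higher and 6 lower, and without both dimmest arrays 1 was higher and 7 lower.

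The 35 members were not all measured equally well. On all 8 arrays 27 probes were well above background, and among these 2 were higher, 8 lower and 17 not called, with a median of -0.07. For the 18763 genes measured that well, 15% were higher, 19.4% lower and the median was -0.03. Groups did not overlap for 10 of the 27, a share of 37% against 35.2% of those genes. PIP2;5, NIP4;2 and NIP7;1 passed the filter of 4 arrays above background only through the control group, so a difference was built into their passing. They are described last. TIP1;3 (AT4G01470), TIP5;1 (AT3G47440) and NIP4;1 (AT5G37810) were above background on 0 of 8 arrays and TIP3;2 (AT1G17810), the seed beta-TIP, on 1 of 8, and these 4 were not tested.

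**Figure D1:**
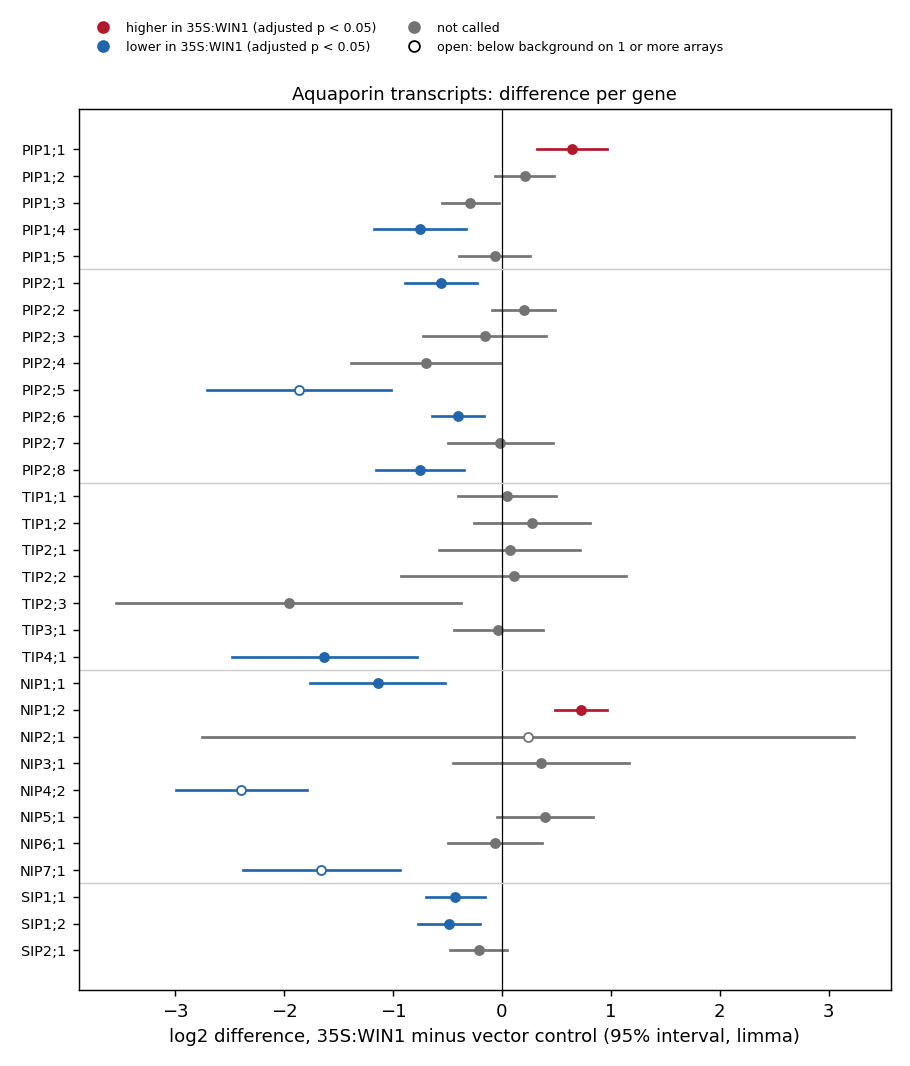
Each point is the log2 difference of one tested aquaporin, 35S:WIN1 minus vector control relative to the 75th percentile of each array, with its 95% interval from limma, for 31 genes in the order PIP1, PIP2, TIP, NIP and SIP. The points of 2 called genes lie to the right of 0 (both would lie below 0 on the spike-in scale), those of 11 called genes to the left, and open points mark genes not above background on every array.

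Subfamilies were called at different rates, and differences between them were not tested. Of 13 PIPs 1 was higher and 5 lower, of 7 tested TIPs 0 higher and 1 lower, of 8 tested NIPs 1 higher and 3 lower, and of 3 SIPs 0 higher and 2 lower. Within the PIPs, the PIP1 group had 1 higher and 1 lower of 5, with a median difference of -0.07, and the PIP2 group had 0 higher and 4 lower of 8, with a median of -0.48. The medians of the TIPs, NIPs and SIPs were 0.05, 0.09 and -0.43. Over all genes tested 15.1% were higher and 20.2% lower. These counts and medians include PIP2;5, NIP4;2 and NIP7;1, which passed the filter only through the control group. With only genes above background on all arrays tested, PIPs had 1 higher and 4 lower of 12. NIPs then had 1 higher and 1 lower of 5, TIPs 0 and 2 of 7, and SIPs 0 and 2 of 3. The summed linear level of the SIP genes ran from 4.42 to 5.40 times the 75th percentile in 35S:WIN1 and from 5.87 to 6.69 in the control. That of the TIP genes ran from 120 to 255 against 153 to 171, so the TIPs were much more uneven among the 35S:WIN1 arrays.

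In the PIP1 group one gene was higher and one lower. PIP1;1 (AT3G61430) stood at 4.57, 4.28, 4.44 and 4.05 on 35S:WIN1 replicates 1 to 4 and at 3.57, 3.90, 3.73 and 3.57 in the control. Every 35S:WIN1 array lay above every control array. The difference was 0.64 (SE 0.14, adjusted p = 0.00938), a 1.56-fold rise, and it was not called on the deposited values (0.25, adjusted p = 0.658) or without both dimmest arrays (0.56, adjusted p = 0.0621). PIP1;4 (AT4G00430) stood at 3.44, 3.43, 3.85 and 4.12 in 35S:WIN1 and at 4.24, 4.48, 4.43 and 4.69 in the control. The groups were apart, with 35S:WIN1 replicate 4 closest to the control. The difference was -0.75 (SE 0.18, adjusted p = 0.0148), and this call too was lost on the deposited values (-1.15, adjusted p = 0.0875) and without both dimmest arrays (-0.47, adjusted p = 0.0873).

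The other PIP1 genes were not called, and their groups overlapped. PIP1;2 (AT2G45960), a main water channel of roots and rosettes, ran from 5.22 to 5.61 in 35S:WIN1 and from 5.12 to 5.37 in the control, a difference of 0.21 with a 95% interval of -0.07 to 0.48. PIP1;3 (AT1G01620) ran from 4.71 to 4.99 against 4.98 to 5.28, and its difference of -0.29 (interval -0.55 to -0.03) missed the threshold at an adjusted p of 0.0803. It was called lower in 3 of 21 alternative settings. They were the spike-in scale, normexp background correction (-0.34, adjusted p = 0.0444) and array weights (-0.32, adjusted p = 0.0394). PIP1;5 (AT4G23400) ran from 2.57 to 3.03 against 2.65 to 3.04 and differed by -0.07, with an interval of -0.39 to 0.26.

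Among PIP2 genes measured on all arrays, 3 fell. PIP2;1 (AT3G53420), a water channel of roots, veins and guard cells, stood at 3.50, 3.15, 3.36 and 3.66 in 35S:WIN1 and at 3.80, 4.05, 3.85 and 4.20 in the control. All control arrays were above all 35S:WIN1 arrays, and the difference was -0.56 (SE 0.14, adjusted p = 0.019). Its call was lost without 35S:WIN1 replicate 3 (-0.54, adjusted p = 0.0509) and without vector control replicate 2 (-0.53, adjusted p = 0.0518). It was also lost on the deposited values (-0.96, adjusted p = 0.12) and without both dimmest arrays (-0.47, adjusted p = 0.0946).

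PIP2;8 (AT2G16850) had the largest fall of these. Its levels were -1.52, -1.17, -1.31 and -1.24 in 35S:WIN1 and -0.10, -0.73, -0.55 and -0.88 in the control. The groups were apart, with control replicate 4 closest to the 35S:WIN1 arrays. The difference was -0.75 (SE 0.18, adjusted p = 0.0129), a 1.68-fold fall. It was not called on the deposited values, where the difference was larger (-1.15, adjusted p = 0.057), or without both dimmest arrays, where it was nearly as large (-0.72, adjusted p = 0.0693).

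PIP2;6 (AT2G39010), a leaf PIP, stood at 3.41, 3.43, 3.34 and 3.59 in 35S:WIN1 and at 4.01, 3.88, 3.76 and 3.74 in the control. These groups were apart as well, but 35S:WIN1 replicate 4 lay close to the lowest control arrays. The difference of -0.40 (SE 0.10, adjusted p = 0.0193) lost its call when 1 array was left out (replicate 1 or 3 of 35S:WIN1, or replicate 1 or 2 of the control), the adjusted p lying between 0.0502 and 0.0578. It was not called either with each array centred on its median (-0.36, adjusted p = 0.0647), on the deposited values (-0.80, adjusted p = 0.169), without both dimmest arrays (-0.38, adjusted p = 0.101) or with the replicate number as a block (adjusted p = 0.056).

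The remaining PIP2 genes measured on all arrays were not called. PIP2;2 (AT2G37170) and PIP2;3 (AT2G37180) are immediate neighbours on chromosome 2 and closely related, and the probe sequences were not used here, so either probe may also read the other transcript. The first ran from 3.06 to 3.44 in 35S:WIN1 against 2.93 to 3.28, a difference of 0.20 (interval -0.09 to 0.49). The second, first described as the drought-responsive gene RD28, ran from -1.22 to -0.04 against -0.61 to -0.31, a difference of -0.16 (interval -0.72 to 0.41). PIP2;7 (AT4G35100), a plasma membrane channel whose delivery and removal have been studied in detail, ran from 4.33 to 5.11 against 4.52 to 5.02, a difference of -0.01 (interval -0.50 to 0.47).

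PIP2;4 (AT5G60660), a root PIP, had a difference of -0.70 with an interval of -1.38 to -0.02 (adjusted p = 0.101). Its 35S:WIN1 arrays were uneven, at -1.63, -0.94, -1.44 and -2.45, against -1.01, -1.19, -0.83 and -0.64 in the control. Replicate 2 of 35S:WIN1 lay among the control arrays, and without it the gene passed (-0.93, adjusted p = 0.0349).

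**Figure D2:**
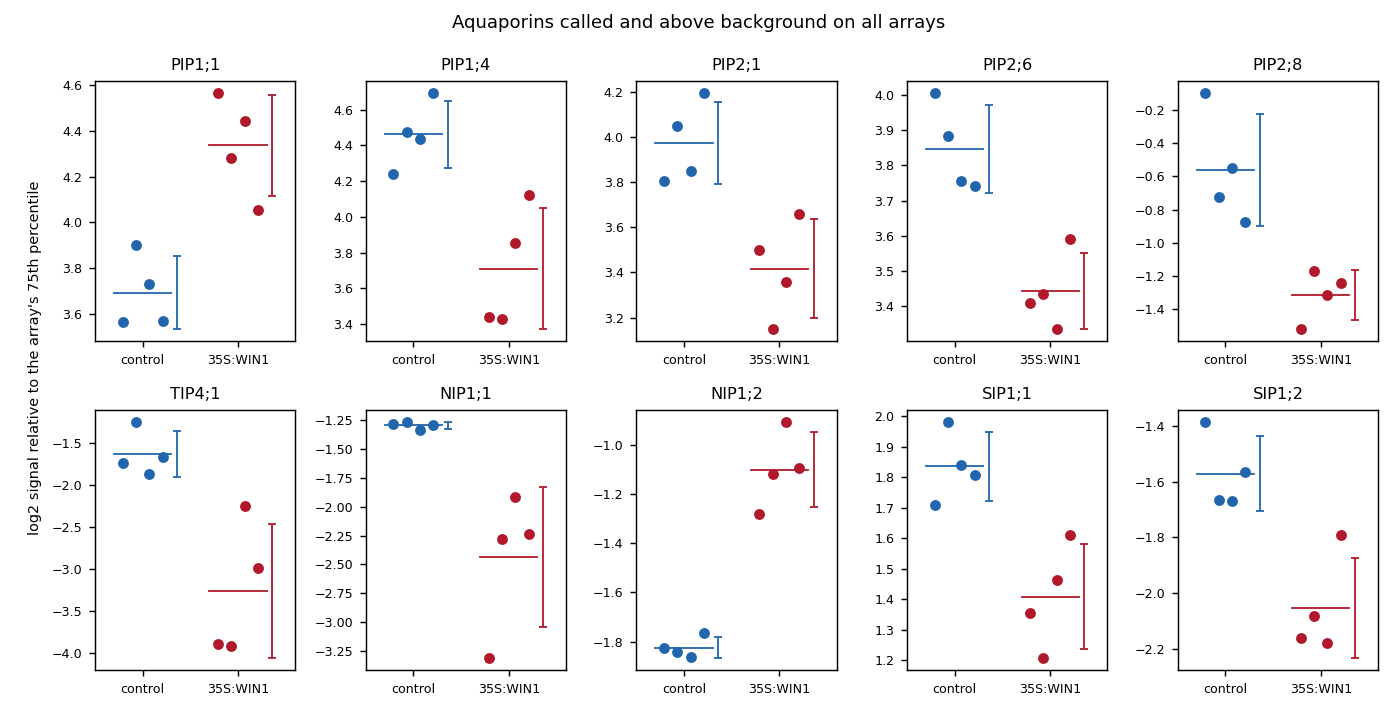
Log2 signal relative to the 75th percentile of the array for the 10 aquaporins called and above background on all arrays, with control arrays in blue and 35S:WIN1 arrays in red, replicates 1 to 4 from left to right, lines for the group means and bars for 1 SD. In all 10 panels the groups do not overlap. PIP1;1 and NIP1;2 are higher in 35S:WIN1 on this scale but below 0 on the spike-in scale. The other 8 are lower on this scale and must be lower on the spike-in scale, which moves every difference down.

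Among the TIPs only TIP4;1 (AT2G25810), a vacuolar channel found mainly in roots, was called, and its difference was the largest of the called members measured on all arrays. It stood at -3.89, -3.91, -2.25 and -2.99 on 35S:WIN1 replicates 1 to 4. The control arrays stood at -1.74, -1.25, -1.87 and -1.66, all above them. The difference was -1.63 (SE 0.37, adjusted p = 0.0112). The call held in all 21 alternative settings, with adjusted p up to 0.0444. Its size depended on the dimmest arrays and on the background correction, being -0.99 without the former and -0.98 with normexp correction.

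TIP2;3 (AT5G47450), another root TIP, had a larger difference but missed the threshold. It stood at -4.93, -3.22, -5.68 and -6.81 in 35S:WIN1 and at -2.72, -3.33, -2.85 and -3.91 in the control. Replicate 2 of 35S:WIN1 lay among the control arrays, while the other 3 were lower than all of them. The difference was -1.96 (SE 0.69, adjusted p = 0.0573, interval -3.54 to -0.38). Without 35S:WIN1 replicate 2 it was -2.61 (adjusted p = 0.00829), without both dimmest arrays -3.05 (adjusted p = 0.0069), and on the deposited values -2.36 (adjusted p = 0.00235). In all it passed in 8 of 21 alternative settings.

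The other vacuolar channels of the TIP1 and TIP2 groups had nearly the same group means but a wide spread in 35S:WIN1. TIP2;2 (AT4G17340) stood at 2.99, 2.99, 1.22 and 1.24 on 35S:WIN1 replicates 1 to 4. The control arrays lay between the first and the last pair, at 2.25, 2.12, 1.86 and 1.79. The difference was 0.11 with an interval of -0.93 to 1.14, and without both dimmest arrays the gene was called lower (-0.77, adjusted p = 0.0238).

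The arrays split in the same way for 3 more TIP genes. TIP2;1 (AT3G16240), the delta-TIP of the shoot, stood at 6.45, 6.63, 5.71 and 5.30 in 35S:WIN1 and from 5.83 to 6.07 in the control. TIP1;2 (AT3G26520) stood at 6.40, 6.53, 5.65 and 5.54 in 35S:WIN1 against 5.76, 5.69, 5.84 and 5.70. TIP1;1 (AT2G36830), the gamma-TIP of elongating cells, stood at 5.47, 5.80, 5.04 and 4.96 against 5.47, 5.21, 5.11 and 5.29. For these 3 and AT4G17340, 35S:WIN1 replicates 1 and 2 lay above every control array (for AT2G36830 replicate 1 only before rounding) and replicates 3 and 4 below every control array. The ranges over the 35S:WIN1 arrays were 1.76 for AT4G17340, 1.33 for AT3G16240, 0.99 for AT3G26520 and 0.84 for AT2G36830, against 0.46, 0.24, 0.15 and 0.35 over the control arrays. The differences were 0.07 (interval -0.57 to 0.72), 0.28 (interval -0.25 to 0.81) and 0.05 (interval -0.40 to 0.50) for the last 3 of these. The 75th percentile of the signal split the same arrays, at 996.7 and 1269 on replicates 1 and 2 and 2273 and 2490 on replicates 3 and 4, and its part in this spread was not tested.

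**Figure D3:**
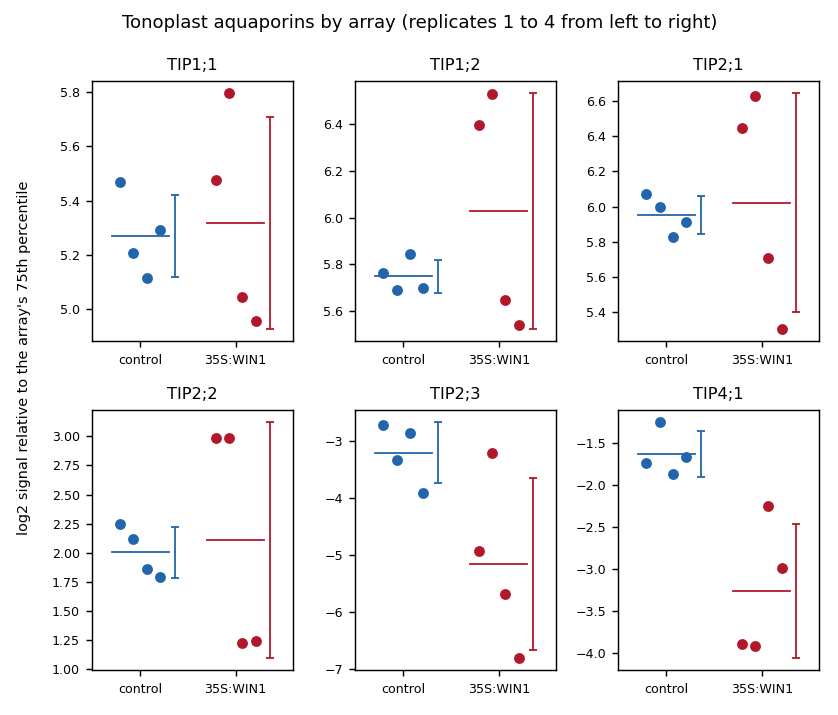
Log2 signal relative to the 75th percentile of the array for 6 TIP genes, with control arrays in blue, 35S:WIN1 arrays in red, replicates 1 to 4 from left to right, lines for group means and bars for 1 SD. TIP1;1, TIP1;2, TIP2;1 and TIP2;2 lie above all control arrays on 35S:WIN1 replicates 1 and 2 and below them on replicates 3 and 4, while TIP4;1 lies below the control on all 4.

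TIP3;1 (AT1G73190), a channel of seed protein storage vacuoles, was dim but above background on all 8 arrays. Its levels ran from -6.22 to -5.40 in 35S:WIN1 and from -5.91 to -5.57 in the control. The difference was -0.03 (interval -0.44 to 0.38), and the control range lay inside that of 35S:WIN1. Of 12 other seed genes 8 were below background on every array. The summed level of the 12 ran from 0.0219 to 0.172 times the 75th percentile in 35S:WIN1 and from 0.0263 to 0.0372 in the control. A single gene that was not tested, SESA5 (AT5G54740), made up 1.30% to 61.7% of that sum on an array. The sum therefore says little of the other 11.

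In the NIP subfamily the related genes NIP1;1 and NIP1;2, which lie on chromosome 4 with 15 genes between them, had differences of opposite sign on the 75th percentile scale. NIP1;1 (AT4G19030), a root NIP known to admit arsenite, stood at -3.31, -2.28, -1.92 and -2.24 in 35S:WIN1. The control arrays were almost identical, at -1.28, -1.27, -1.34 and -1.30, and all higher. The difference was -1.14 (SE 0.27, adjusted p = 0.0133), a 2.20-fold fall. The call held in all 21 alternative settings, with adjusted p up to 0.0361, and without both dimmest arrays the difference was -0.78.

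NIP1;2 (AT4G18910), a channel studied for aluminium-malate transport in roots, was higher. It stood at -1.28, -1.12, -0.91 and -1.10 in 35S:WIN1 and at -1.83, -1.84, -1.86 and -1.76 in the control. The groups were well apart, and the difference was 0.72 (SE 0.10, adjusted p = 0.00163), a 1.65-fold rise. It was called in 19 of 21 alternative settings. It was not called on the deposited values (0.32, adjusted p = 0.587) and lay below 0 on the spike-in scale (-0.91, adjusted p = 0.11).

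The boric acid channels of roots and young shoots were not called. NIP5;1 (AT4G10380), which takes up boric acid in roots, stood at -0.72, -0.66, -0.24 and -0.76 in 35S:WIN1 and at -1.28, -0.74, -1.27 and -0.67 in the control. The groups overlapped, and the difference was 0.40 with an interval of -0.04 to 0.83. NIP6;1 (AT1G80760), which passes boric acid to young shoot tissue, ran from -0.90 to -0.54 against -1.24 to -0.42 and differed by -0.06 (interval -0.49 to 0.37). NIP3;1 (AT1G31885) ran from -5.36 to -4.15 against -5.89 to -4.58 and differed by 0.36 (interval -0.45 to 1.16).

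Of the BOR exporters, which move borate out of cells alongside these channels, 0 of 6 tested were higher and 3 lower. Among all genes tested 15.1% were higher and 20.2% lower. BOR5 (AT1G74810) had a difference of -3.14 (SE 0.34, adjusted p = 0.000487) and BOR4 (AT1G15460) of -1.60 (SE 0.38, adjusted p = 0.0134). The third lower gene, the relative AT4G32510, passed background on only 2 of the 4 arrays from 35S:WIN1 and on all 4 control arrays. It was kept only through the control, so a difference was built into its passing. Its fitted difference was -2.91 (SE 0.64), or 5.01-fold lower with values raised to the detection floor. BOR1 (AT2G47160), the exporter that loads the xylem, was not called (0.27, adjusted p = 0.195).

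NIP2;1 (AT2G34390), a lactic acid channel that low oxygen induces in roots, had the largest SE of the tested members, at 1.30. It stood at -2.76, -5.78, -2.44 and -4.98 in 35S:WIN1 and at -7.30, -3.03, -5.16 and -1.43 in the control. The arrays of each group were spread over 3.34 and 5.87. The difference of 0.24 has an interval of -2.75 to 3.23, so neither a rise nor a fall could be read from 4 samples a group.

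Both SIP1 genes were lower. SIP1;1 (AT3G04090) stood at 1.35, 1.21, 1.46 and 1.61 in 35S:WIN1 and at 1.71, 1.98, 1.84 and 1.81 in the control. SIP1;2 (AT5G18290) stood at -2.16, -2.08, -2.18 and -1.79 in 35S:WIN1 and at -1.38, -1.67, -1.67 and -1.56 in the control. The groups did not overlap for either, with differences of -0.43 (SE 0.12, adjusted p = 0.0238) and -0.48 (SE 0.12, adjusted p = 0.0182). The first lost its call without replicate 1 or 2 of 35S:WIN1 and without replicate 2 or 3 of the control. The second lost it without replicate 1 or 3 of 35S:WIN1 and without replicate 1 of the control. In these fits the adjusted p lay between 0.0507 and 0.0669. Neither was called on the deposited values (-0.83 and -0.88, adjusted p = 0.179 and 0.142) or without both dimmest arrays (-0.30 and -0.41, adjusted p = 0.143 and 0.115). The first was not called with the replicate number as a block (adjusted p = 0.0655), nor the second with normexp background correction (-0.30, adjusted p = 0.104). SIP2;1 (AT3G56950) ran from 0.78 to 1.04 against 0.98 to 1.29, had a difference of -0.21 (interval -0.48 to 0.05) and was not called.

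For 3 further members called lower, the 35S:WIN1 side was at or near background. NIP4;2 (AT5G37820), known from pollen, was not well above background on any 35S:WIN1 array and was so on all 4 control arrays, where it stood at -6.14, -5.97, -6.60 and -6.78. Against the lowest signal detected on each 35S:WIN1 array, averaged over the 4 arrays, the control level was 1.56-fold higher. On 35S:WIN1 replicate 1 that lowest signal was -6.36, above the level of the gene on control replicates 3 and 4. The 1.56-fold value was not tested, and it is not a strict bound, since an undetected probe can lie above that lowest signal. The adjusted p of 0.000507 belongs to the difference of -2.39 (SE 0.26) fitted on the 35S:WIN1 values below background. Its immediate neighbour AT5G37810 was below background on all 8 arrays. NIP7;1 (AT3G06100), a boric acid channel of anthers, stood at -7.10, -7.07, -6.06 and -5.74 in 35S:WIN1, where 2 of 4 arrays were above background, and at -5.05, -4.77, -4.79 and -4.74 in the control. It had a difference of -1.66 (SE 0.31, adjusted p = 0.00537), or 2.62-fold lower with values raised to the detection floor. Of 5 pollen marker genes 1 was tested, AGP6 (AT5G14380), which passed background on 2 of the 4 arrays from 35S:WIN1 and on all 4 control arrays, so that it too was kept only through the control. It was called lower, by 3.38-fold with values raised to the floor. The summed level of the 5 ran from 0.017 to 0.0276 times the 75th percentile in 35S:WIN1 against 0.0422 to 0.115 in the control. AGP6 alone made up 30.9% to 80.9% of that sum on an array, and the other 4 genes were not tested. The sum therefore says little of those 4.

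PIP2;5 (AT3G54820) stood at -8.40, -8.21, -7.46 and -6.57 in 35S:WIN1, with 1 of 4 arrays above background, and at -5.73, -5.78, -5.80 and -5.88 in the control. The difference was -1.86 (SE 0.37, adjusted p = 0.00622), or 1.97-fold lower with the floor. On 35S:WIN1 replicates 1 and 2 the floor itself was higher than on the other arrays, at -6.36 and -6.73. Another background correction, normexp with an offset of 50, left none of these 3 called, with differences of 0.23 for AT5G37820, 0.14 for AT3G54820 and -0.15 for AT3G06100 (adjusted p = 0.527, 0.691 and 0.649). The processed signals of the 3 in 35S:WIN1 reached at most 4.83, 26.3 and 46.6, in the same order. An offset of 50 shrinks differences between such dim signals, so this fit cannot decide whether the calls hold.

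**Figure D4:**
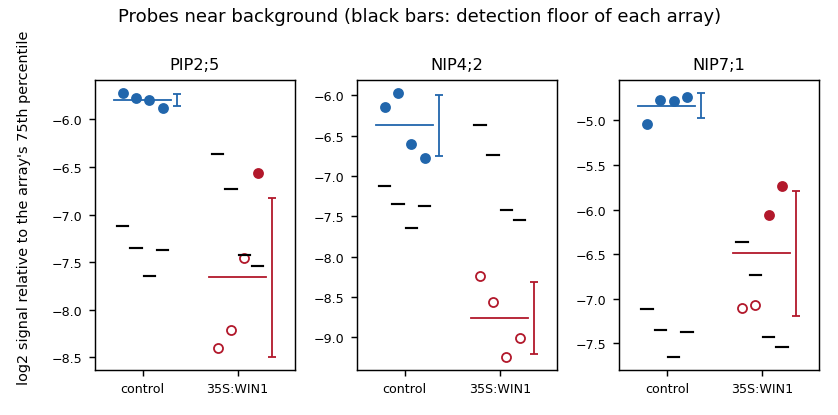
Log2 signal relative to the 75th percentile of the array for 3 dim aquaporin probes, with control arrays in blue, 35S:WIN1 arrays in red, replicates 1 to 4 from left to right, and filled points for arrays on which the probe was well above background. Black bars mark the lowest signal detected on each array, and all 4 points of NIP4;2, 3 of PIP2;5 and 2 of NIP7;1 in 35S:WIN1 are open.

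Genes that act on aquaporins or beside them gave a mixed picture. Of 8 genes of aquaporin delivery and turnover, 4 were higher and 1 lower, beside 15.1% and 20.2% of all genes. On the spike-in scale SYP122 (0.37) and TSPO (0.46) would stay above 0, and SYP121 (-0.40) and VAP27-1 (-1.02) would not. SYP121 (AT3G11820), a plasma membrane syntaxin that helps deliver the channel encoded by AT4G35100, had a difference of 1.24 (SE 0.18, adjusted p = 0.00172), and its relative SYP122 (AT3G52400) of 2.01 (SE 0.26, adjusted p = 0.00108). TSPO (AT2G47770), a membrane protein that binds the same channel and sends it to degradation, had a difference of 2.10 (SE 0.29, adjusted p = 0.00132). VAP27-1 was higher too, by 0.62, and the ubiquitin ligase gene RMA2 lower, at -0.95. The transcript of AT4G35100 itself differed by -0.01.

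Proton pumps drive solute uptake across the same membranes. Among 10 tested plasma membrane pump genes of the AHA family, 1 was higher and 2 lower, beside 35.3% of all genes called either way, HA8 at 0.65 (-0.99 on the spike-in scale) and HA4 and HA5 at -1.14 and -1.06. Of 3 tonoplast pump genes, 1 was lower, the pyrophosphatase gene AVP1 (AT1G15690) at -0.53 (SE 0.12, adjusted p = 0.0115), while VHA-A2 and VHA-A3 differed by -0.05 and -0.08.

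Some markers of the tissues that hold these channels were called too, to be read beside 15.1% higher and 20.2% lower among all genes tested. In whole seedlings fewer cells of a type and less RNA per cell cannot be told apart. Of 17 root genes 5 were higher and 1 lower. The lower one was IRT1 (AT4G19690), which passed background on 2 of the 4 arrays from 35S:WIN1 and on all 4 control arrays. IRT1 was thus kept only through the control. On the spike-in scale 4 of the 5 higher ones would lie below 0. The summed linear level of the root genes was 60.5 to 102 times the 75th percentile in 35S:WIN1 against 40.6 to 66.05 in the control, and PYK10 (AT3G09260) alone made up 60.5% to 77.6% of it, so the sum says little of the other 16. Of 5 tested genes of the Casparian strip in the root endodermis 1 was higher and 4 lower, with summed levels of 1.22 to 2.56 against 2.21 to 4.26. Of 11 genes of green shoot tissue 0 were higher and 8 lower (385 to 459 against 551 to 665), and of 8 guard cell genes 0 were higher and 7 lower (3.36 to 6.43 against 12.6 to 15.1). None of the 3 xylem and phloem genes was called, with summed levels of 10.5 to 14.03 against 6.81 to 14.2. Of 8 tested genes of the water deficit response, 3 were higher and 4 lower, with summed levels of 52.3 to 84.8 against 24.4 to 29.4. A single gene, RD22 (AT5G25610), with a difference of 2.87, made up 20.04% to 77.6% of that sum on an array. The sum therefore says little of the other 8 genes listed. The part of these markers in the aquaporin differences was not tested.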

How the data were processed

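Cy3-labelled total RNA (1 µg a sample), per the labels' protocols, was read with Agilent Feature Extraction, version 9.1.3.1 in the submitters' processing notes. The processed signal is a linear intensity that was background-subtracted and not scaled between arrays, per the file headers. The authors' deposited table holds the same intensity divided by one constant per slide (1341 and 1312). The number of arrays limits the precision.

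From these files, the log2 signal was centred on the 75th percentile of its own array. No aquaporin spot was saturated or marked as an outlier. A gene was represented by its brightest probe and kept if 4 of 8 arrays or more were well above background. Of 20442 genes kept, 20441 were fitted with limma 3.58.1 (lmFit and eBayes, R 4.3.3). Tests were two-sided, with Benjamini-Hochberg adjustment and a threshold of 0.05. For genes below background on some or all arrays of the lower group, values under the lowest signal detected on an array were raised to it. The code was tested on simulated data.

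All 35 loci were in the RefSeq table given (TAIR10.1), 34 of them under the names used here. Since the files name no build, no coordinates are printed.

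Every aquaporin is accounted for. Of the other lists, up to 3 tested members with the smallest p were to be named, and other genes of those lists were named after their values were seen. Members and lists were chosen with earlier results of these data known. Normexp correction used the median spot signal. A further 20 settings were planned, and 1, genes above background on all arrays, was chosen after seeing the data. Each aquaporin had 1 probe, so averaging over probes left its difference unchanged, as did changing only the filter. On the spike-in scale 29 aquaporins were lower, so a lower call kept there adds little. The main fit did not pair the samples by replicate number.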

Additional observations from a re-analysis of the deposited data

Results flagged for a closer look

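Among 62 groups of 4 arrays, one for each tested aquaporin in each line, 2 held an array far from the other 3, where chance flags about 1 in 20 groups. For PIP2;2, vector control replicate 2 stood at 3.28, against 2.93 to 2.99 on the other control arrays. For NIP7;1, vector control replicate 1 stood at -5.05, against -4.79 to -4.74.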

How the results depend on the processing

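The counts of aquaporins called, 2 higher and 11 lower, depended most on how arrays were scaled and on the dimmest arrays. On the spike-in scale 0 were higher and 29 lower, by subfamily 0 higher and 12 lower PIPs, 7 lower TIPs, and 0 higher and 7 lower NIPs. On the deposited values 0 were higher and 6 lower, with 0 higher and 1 lower PIP, 2 lower TIPs, 0 higher NIPs and 0 lower SIPs. Without both dimmest arrays 1 was higher and 7 lower, with 0 higher and 1 lower PIP, 3 lower TIPs and 0 lower SIPs. Quantile normalization gave 2 higher PIPs, normexp 1 lower NIP and 1 lower SIP, and genes above background on all arrays, a setting chosen after seeing the data, 2 lower TIPs and 1 lower NIP, since fewer genes were tested. Array weights and the trend and robust variance model each gave 2 lower TIPs. Leaving out 1 array at a time gave 2 higher and 8 to 12 lower aquaporins, with 3 to 6 lower PIPs, 1 to 2 lower TIPs and 0 to 2 lower SIPs. Calls of all genes were 3079 higher and 4137 lower, a share of 42.7% higher, which was 30.3% on the deposited values (906 and 2087) and 2.29% on the spike-in scale (403 and 17158), where the median of all genes moved by -0.40 and -1.64.

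The replicate block gave 2 lower TIPs and 1 lower SIP, and 2583 genes higher and 3456 lower. Deviations of same-numbered arrays correlated at r = -0.04 to 0.14, and 1 of 4 numbers matched best with itself. Yet the 75th percentile rose with replicate number in both groups (996.7 to 2490 in 35S:WIN1, 1790 to 2354 in the control). What else same-numbered arrays may share was not tested.

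Signs turned mostly for members that were not called. On the spike-in scale the differences were -0.99 for PIP1;1, -1.43 for PIP1;2 and PIP2;2, -1.59 for TIP1;1, -1.35 for TIP1;2, -1.56 for TIP2;1, -1.53 for TIP2;2, -0.91 for NIP1;2, -1.39 for NIP2;1, -1.28 for NIP3;1 and -1.24 for NIP5;1. On the deposited values they were -0.19 for PIP1;2, -0.20 for PIP2;2, -0.35 for TIP1;1, -0.12 for TIP1;2, -0.33 for TIP2;1, -0.29 for TIP2;2, -0.16 for NIP2;1, -0.043 for NIP3;1 and -0.0045 for NIP5;1. Without both dimmest arrays they were 0.0027 for PIP2;3, -0.27 for TIP1;1, -0.15 for TIP1;2, -0.45 for TIP2;1, -0.77 for TIP2;2 and 0.0079 for NIP6;1. Normexp gave 0.14 for PIP2;5, 0.35 for TIP3;1 and 0.23 for NIP4;2, quantile normalization 0.15 for PIP2;7 and 0.11 for TIP3;1, median centring 0.032 for PIP2;7 and 0.013 for TIP3;1, and array weights -0.10 for TIP2;2 and 0.083 for NIP6;1. Over the fits without 1 array the range was -0.14 to 0.012 for PIP1;5, -0.36 to 0.031 for PIP2;3, -0.14 to 0.12 for PIP2;7, -0.11 to 0.17 for TIP1;1, -0.13 to 0.31 for TIP2;1, -0.19 to 0.40 for TIP2;2, -0.17 to 0.11 for TIP3;1, -0.78 to 1.17 for NIP2;1 and -0.23 to 0.045 for NIP6;1. The causes were not tested, apart from the scale changes, which move all genes.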
